A study of Mus musculus with 21 samples.

Results

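The 9 genes described here, Adora2a, Gpr6, Drd2, Drd1, Rgs9, Scn4b, Ppp1r1b, Pde10a and Adcy5, are known as genes of striatal projection neurons and were measured in tissue labelled cortex and hippocampus. They are 9 of 64361 gene rows of a table of counts per gene. They were selected on lower counts in cortex libraries of GA-Camk2a mice than of controls, seen earlier in these same data, so the cortex difference is given as a description with no test. The comparison asks whether the 9 genes fell by 1 common factor in the cortex libraries. Bulk RNA was measured with prime-seq, which reads the 3′ ends of polyadenylated transcripts, in 21 libraries of 11 mice. GA-Camk2a mice carry a GFP-tagged poly-GA transgene that Camk2a-Cre switches on, a driver the study describes as one of excitatory neurons. Poly-GA is a dipeptide repeat protein made from the C9orf72 repeat expansion of ALS. Cortex libraries came from 5 controls and 6 GA-Camk2a animals, hippocampus libraries from 4 controls and 6 GA-Camk2a animals, and 10 mice gave both tissues. These numbers follow the labels, while the study's text has the extra control in the other tissue and states that the line's mice came from a pair of litters, which no label assigns. Mice were on a C57BL/6J background and 30 to 40 weeks old, and the transgenic line reaches its humane endpoint near the start of that range. The controls are labelled only as ctrl, with no alleles. The study's text calls the cortex tissue neocortex and, for stained sections, names the controls of this line as Camk2a. Neither sex nor the borders of the dissected tissue is given in the sources used here.

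Striatal projection neurons are the GABAergic output cells of the striatum, which lies under the cortex and the corpus callosum. Cells of the direct pathway carry the dopamine receptor Drd1, which raises cAMP, and cells of the indirect pathway carry Drd2, which lowers it, together with the adenosine receptor Adora2a and the constitutively active receptor Gpr6, which raise it. In both kinds of cell Adcy5 makes cAMP, Pde10a breaks it down, Rgs9 shortens G protein signals, Ppp1r1b (DARPP-32) turns protein kinase A activity into inhibition of a phosphatase, and Scn4b is a sodium channel subunit. Cortical and hippocampal neurons express several of the shared genes at lower levels.

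Promoter windows from RefSeq on GRCm38.p6, each from 250 bases before to 50 bases after a start, were at hand for 7 of the 9 genes, in 9 windows of 300 bases. Neither Adora2a nor Ppp1r1b was among them. The windows are given as a description of the genes, and those of 3 genes are printed. Their part in the levels of the genes was not tested. The windows were searched on both strands for the cAMP response element TGACGTCA, its core TGACG and the TATA box letters TATAAA. Only the Gpr6 window held the full element, 78 bases before the start, and only it held the core, which is part of the full one. The full element stood in 1.79% and the core in 20.8% of all 32851 windows of this length. Only the Rgs9 window held TATAAA, 195 bases before the start, and these letters stood in 13.6% of all windows. Whether they act as a TATA box there was not tested. The GC content was 58.7% for Gpr6, 60.3% for Rgs9 and 70.3% for Drd2, against a median of 52.7% over all windows, and ranged from 56.7% in a window of Pde10a to 79.0% for Adcy5. The sequences run 5′ to 3′ on the strand of the gene, with the letters found in capitals and none found for Drd2.
Gpr6, chr10:41072241-41072540, minus strand: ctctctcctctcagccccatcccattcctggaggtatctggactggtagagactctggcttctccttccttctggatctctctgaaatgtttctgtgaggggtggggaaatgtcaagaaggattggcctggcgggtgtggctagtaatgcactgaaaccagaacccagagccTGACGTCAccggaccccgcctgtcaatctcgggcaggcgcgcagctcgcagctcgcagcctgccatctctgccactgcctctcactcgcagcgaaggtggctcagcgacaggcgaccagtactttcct
Rgs9, chr11:109298132-109298431, minus strand: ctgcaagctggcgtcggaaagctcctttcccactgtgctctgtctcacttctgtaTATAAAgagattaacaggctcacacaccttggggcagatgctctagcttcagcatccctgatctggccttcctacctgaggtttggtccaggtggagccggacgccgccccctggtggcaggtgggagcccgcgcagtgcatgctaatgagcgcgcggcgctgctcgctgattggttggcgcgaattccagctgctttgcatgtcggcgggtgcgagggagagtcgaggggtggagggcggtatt
Drd2, chr9:49340153-49340452, plus strand: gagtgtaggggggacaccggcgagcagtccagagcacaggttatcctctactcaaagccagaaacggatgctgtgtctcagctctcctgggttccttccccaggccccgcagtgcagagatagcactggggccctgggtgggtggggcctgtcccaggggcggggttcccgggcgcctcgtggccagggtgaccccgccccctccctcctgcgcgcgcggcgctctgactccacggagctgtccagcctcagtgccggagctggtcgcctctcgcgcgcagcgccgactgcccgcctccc

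Library totals ranged from 1048201 to 5888102 counts, with a median of 1975173, so the receptor genes rest on few counts and Ppp1r1b on many. Levels are CPM, the count divided by the library total and scaled by 1e6. The row for GFP held 0 to 4 counts per library and therefore gives no check of the genotype labels. The tissue labels were checked with 5 markers of hippocampal neurons, of which 5 were higher in hippocampus than in cortex controls, by 2.07 to 3.18 on the log2 scale. The libraries are of whole tissue pieces, so fewer cells of a type and less RNA per cell cannot be told apart. The mouse is the replicate.

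In cortex, all 9 genes were lower in GA-Camk2a mice than in controls. Their summed level was 492, 476, 543, 630.3 and 534 CPM in the 5 control libraries. In the 6 GA-Camk2a libraries it was 169, 159.7, 245, 197.5, 259 and 260.0 CPM. Every GA-Camk2a library was below every control library for 8 of the 9 genes, Drd2 being the exception. Over all 13058 genes tested, 2.67% had every GA-Camk2a cortex library below every control library. All 9 passed an adjusted p of 0.05 downwards, as did 6.16% of all genes tested, and since this contrast chose the genes neither count is a finding about them.

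**Figure D1:**
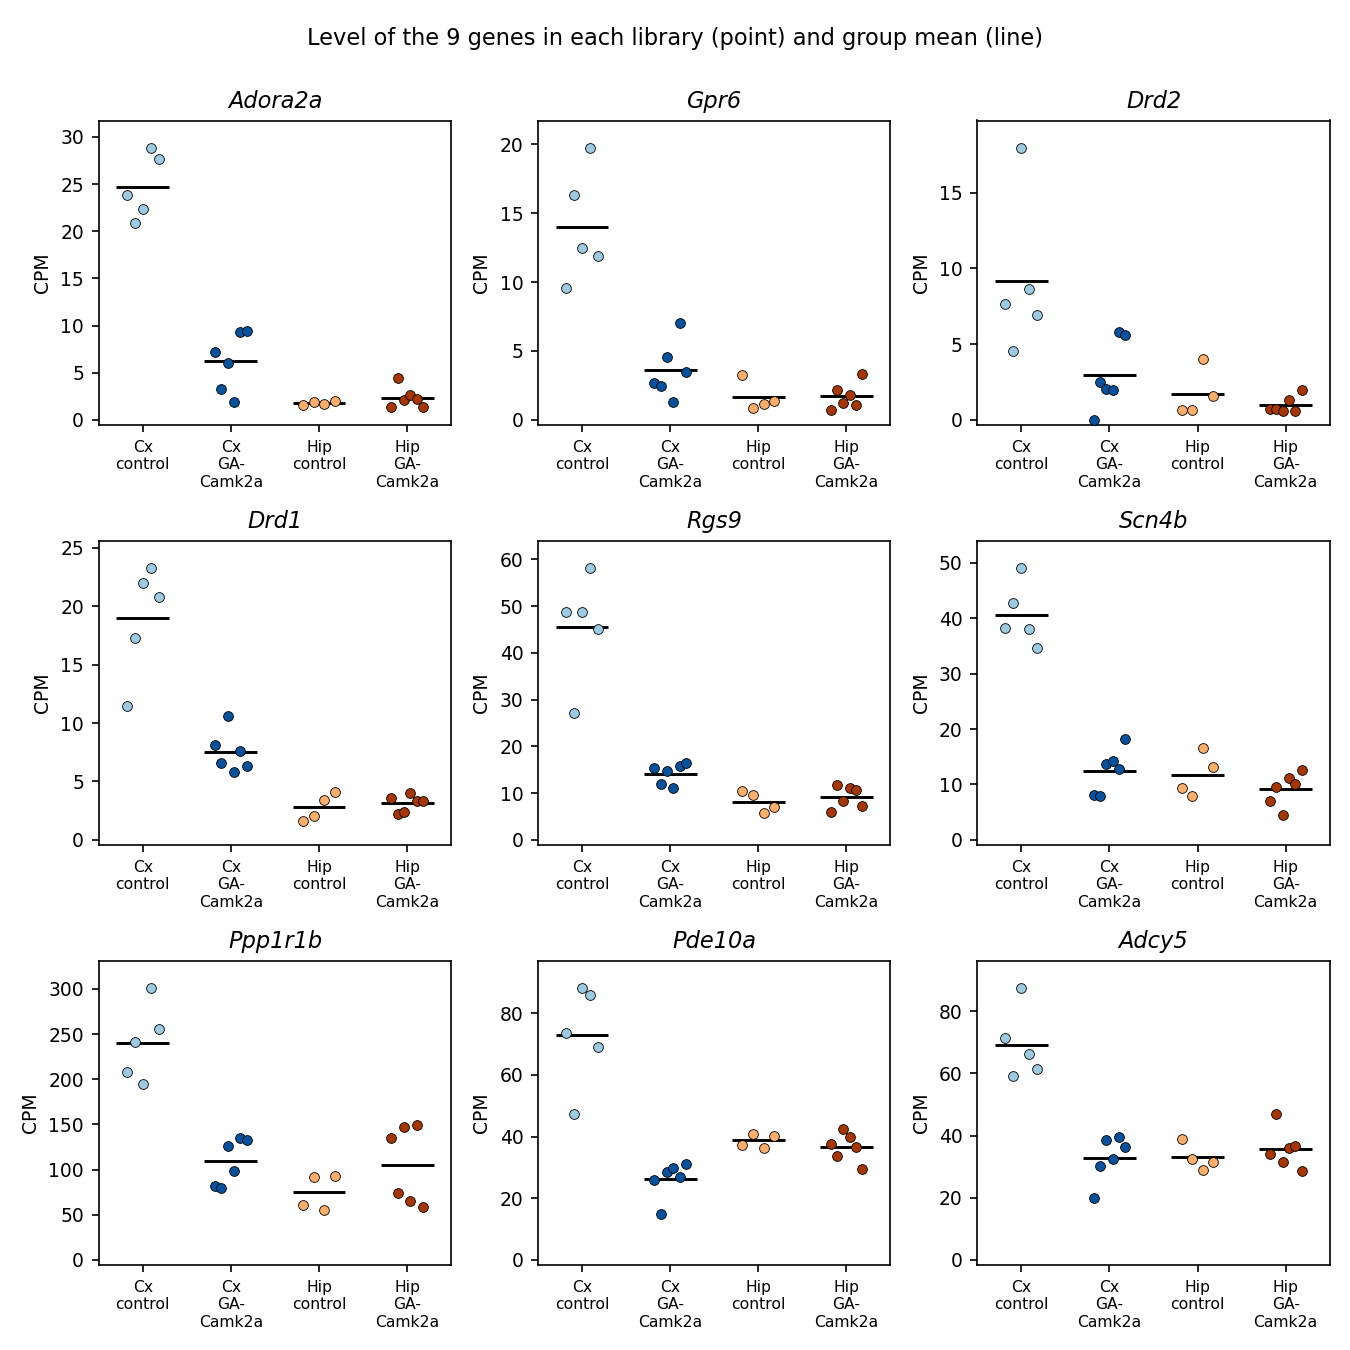
CPM of each of the 9 genes (vertical axes, each from about 0 to its own maximum) in the libraries of cortex (Cx) and hippocampus (Hip) by genotype. Points are libraries and lines are group means, with 5, 6, 4 and 6 libraries from left to right. Control cortex stands above the other 3 groups for all genes, with some overlap for Drd2.

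Among the receptors of the indirect pathway, Adora2a, the adenosine receptor, was at 23.9, 20.9, 22.4, 28.9 and 27.7 CPM in control cortex. In GA-Camk2a cortex it lay between 1.95 and 9.45 CPM with a median of 6.63. The groups did not overlap, and the GA-Camk2a mean of 6.22 ± 3.09 (SD, n = 6) was 25.1% of the control mean of 24.7 ± 3.43 (SD, n = 5). Gpr6 was at 9.54, 16.3, 12.5, 19.7 and 11.9 CPM in control cortex and between 1.299 and 6.99 CPM, with a median of 3.10, in GA-Camk2a cortex. Its highest GA-Camk2a library, of mouse 35, was still under the lowest control library, and the GA-Camk2a mean was 25.6% of the control mean. Drd2, the dopamine D2 receptor, was at 7.63, 4.54, 17.95, 8.61 and 6.93 CPM in control cortex. In GA-Camk2a cortex it was at 0, 2.48, 2.03, 1.95, 5.83 and 5.60 CPM. For Drd2 the groups overlapped, since the libraries of mice 35 and 41 exceeded the lowest control library and 4 of 6 were below all controls. The count of 0 in mouse 16 allows up to 2.70 CPM (3 counts, counting error only). Control mouse 31 had the highest Drd2 level of all libraries, and without it the log2 fold change of Drd2 was -1.08 in place of -1.54 and no longer passed the threshold.

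The receptor of the direct pathway, Drd1, was at 11.4, 17.3, 21.98, 23.3 and 20.8 CPM in control cortex. In GA-Camk2a cortex it was at 8.09, 6.604, 10.6, 5.85, 7.58 and 6.30 CPM. The highest GA-Camk2a library, of mouse 30, was just under the lowest control library, of mouse 11, and the GA-Camk2a mean was 39.6% of the control mean.

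Of the signalling genes that both kinds of neuron share, Rgs9, the striatal RGS protein, had 48.7, 27.2, 48.7, 58.2 and 45.2 CPM in control cortex and between 11.04 and 16.4 CPM in GA-Camk2a cortex, 31.1% of the control mean. The sodium channel subunit Scn4b had 38.2, 42.7, 49.1, 37.97 and 34.6 CPM in control cortex and between 7.84 and 18.2 CPM in GA-Camk2a cortex, 30.8% of the control mean. Both genes left a wide gap between the groups. The phosphodiesterase Pde10a had 73.5, 47.2, 88.3, 86.1 and 69.0 CPM in control cortex and 26.1, 14.9, 28.4, 29.9, 26.8 and 31.1 CPM in GA-Camk2a cortex, 36.0% of the control mean. Mouse 23 stood below the other 5 GA-Camk2a mice for this gene. Ppp1r1b, which encodes DARPP-32, had 208, 240.7, 194.9, 301 and 256 CPM in control cortex and between 80.1 and 134.7 CPM in GA-Camk2a cortex, 45.4% of the control mean. The adenylyl cyclase Adcy5 had 71.6, 59.0, 87.6, 66.3 and 61.5 CPM in control cortex and between 19.8 and 39.6 CPM in GA-Camk2a cortex, 47.4% of the control mean. These last 2 genes kept the largest part of their control level.

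The estimates of the fall ran over a range of sizes. On the log2 scale of the edgeR fit, GA-Camk2a against control in cortex was -1.95 ± 0.24 (SE) for Adora2a, -1.85 ± 0.25 for Gpr6, -1.54 ± 0.39 for Drd2 and -1.38 ± 0.20 for Drd1. It was -1.68 ± 0.17 for Rgs9, -1.64 ± 0.18 for Scn4b, -1.49 ± 0.17 for Pde10a, -1.10 ± 0.14 for Ppp1r1b and -1.05 ± 0.14 for Adcy5. The median of the 9 values was -1.54, beside 0.00 (-0.00488) over all genes tested. As folds, the range ran from 2.08-fold lower for Adcy5 to 3.85-fold lower for Adora2a. The 95% interval was -2.44 to -1.45 for Adora2a, -1.34 to -0.77 for Adcy5 and -1.39 to -0.81 for Ppp1r1b, and that of Drd2, -2.35 to -0.74, held the estimate of each of the other 8 genes. These intervals come from the contrast that chose the genes, and nothing is read from how they lie to each other. The difference between genes was not tested, since the estimates come from the same libraries.

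**Figure D2:**
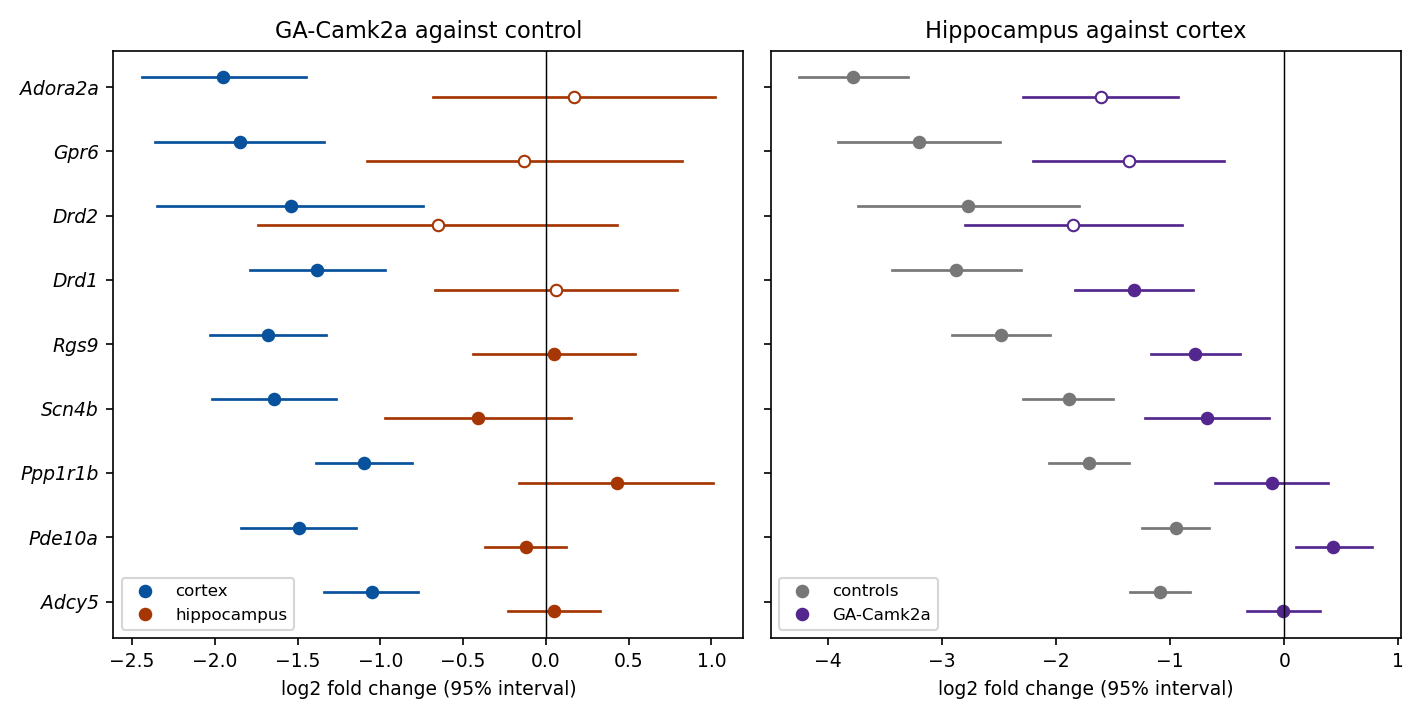
Log2 fold changes (points) with 95% intervals (lines) from the edgeR fits for the 9 genes, on the left GA-Camk2a against control in cortex and hippocampus, on the right hippocampus against cortex in controls and in GA-Camk2a mice. Open points are from the fit without a filter, for genes under the count filter. Cortex estimates run from -1.95 to -1.05 while the hippocampus intervals all include 0.

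The share that each gene took of the summed counts of the 9 genes in a library restates the same contrast on another scale. Adora2a took 4.62% ± 0.415 (SD, n = 5) in control cortex and 2.84% ± 1.21 (SD, n = 6) in GA-Camk2a cortex. Rgs9 went from 8.46% ± 1.61 to 6.75% ± 1.29 and Scn4b from 7.65% ± 1.38 to 5.74% ± 1.1. Drd1 took 3.52% ± 0.686 and 3.59% ± 0.948. Ppp1r1b went from 44.9% ± 5.88 to 50.5% ± 1.3 and Adcy5 from 13.0% ± 2.28 to 15.3% ± 2.40. The ranges of the genotypes overlapped for all of these but were least alike for Adora2a, with 4.11% to 5.19% in controls and 0.987% to 4.26% in GA-Camk2a mice. No test was run on the shares, which hold the contrast that chose the genes. The level that a gene has in tissue without striatum was not taken off, and control hippocampus held Adcy5 at 33.0, Pde10a at 38.8 and Adora2a at 1.81 CPM. Whether the part of the cortex level above such a base fell by 1 factor was not tested.

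The counts of Adora2a, Gpr6 and Drd2 together were 3.58, 2.42, 2.40, 2.46 and 2.24 times those of Drd1 in the 5 control cortex libraries. In GA-Camk2a cortex this ratio was 1.22, 1.25, 1.19 and 0.889 in mice 16, 23, 30 and 34 but 2.92 and 2.94 in mice 35 and 41. Those 4 mice were below every control, and the other 2 were inside the control range. These ratios rest on 8 to 53 counts of the indirect receptors and 9 to 21 counts of Drd1 in a GA-Camk2a cortex library. In hippocampus, on 3 to 18 counts of Drd1 a library, the ratio ran from 1.22 to 3.40 in controls and from 0.800 to 3.33 in GA-Camk2a mice.

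Whether the 9 genes also rise and fall together between mice of 1 genotype can be read from deviations from the genotype means, which the cortex contrast does not enter. Over the 11 cortex libraries, averaged over the 9 genes on the log2 scale, GA-Camk2a mice 35, 41 and 30 lay above their mean by 0.441, 0.353 and 0.156. Mice 16, 23 and 34 had -0.300, -0.358 and -0.291. The value of mouse 16 rests largely on Drd2, at -1.75. That of mouse 34 rests largely on Adora2a at -1.17 and Gpr6 at -0.902, with 3 and 2 counts. Control means stayed between -0.193 in mouse 20 and 0.247 in mouse 37. The GA-Camk2a mice with the highest mean deviations were the 2 whose receptor ratio lay in the control range, a ratio that uses 4 of the same 9 genes. In mouse 35 the largest deviations were those of Drd2, Gpr6 and Adora2a, at 1.08, 0.953 and 0.697. In mouse 41 they were those of Drd2 and Adora2a, at 0.995 and 0.681. These genes form the numerator of the ratio, so the match is in part built in and nothing is read from it. The correlation of each gene's deviations with the mean deviation of the other 8 genes was 0.719 for Ppp1r1b, 0.645 for Adcy5, 0.613 for Gpr6, 0.574 for Adora2a, 0.552 for Rgs9, 0.530 for Scn4b, 0.496 for Drd2, 0.491 for Pde10a and 0.248 for Drd1. The median of 0.552 stood beside a median of 0.00963 and a 95th percentile of 0.530 for all 13049 other genes against the mean of the 9. These values share libraries and depth, come from n = 11 and are descriptions.

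**Figure D3:**
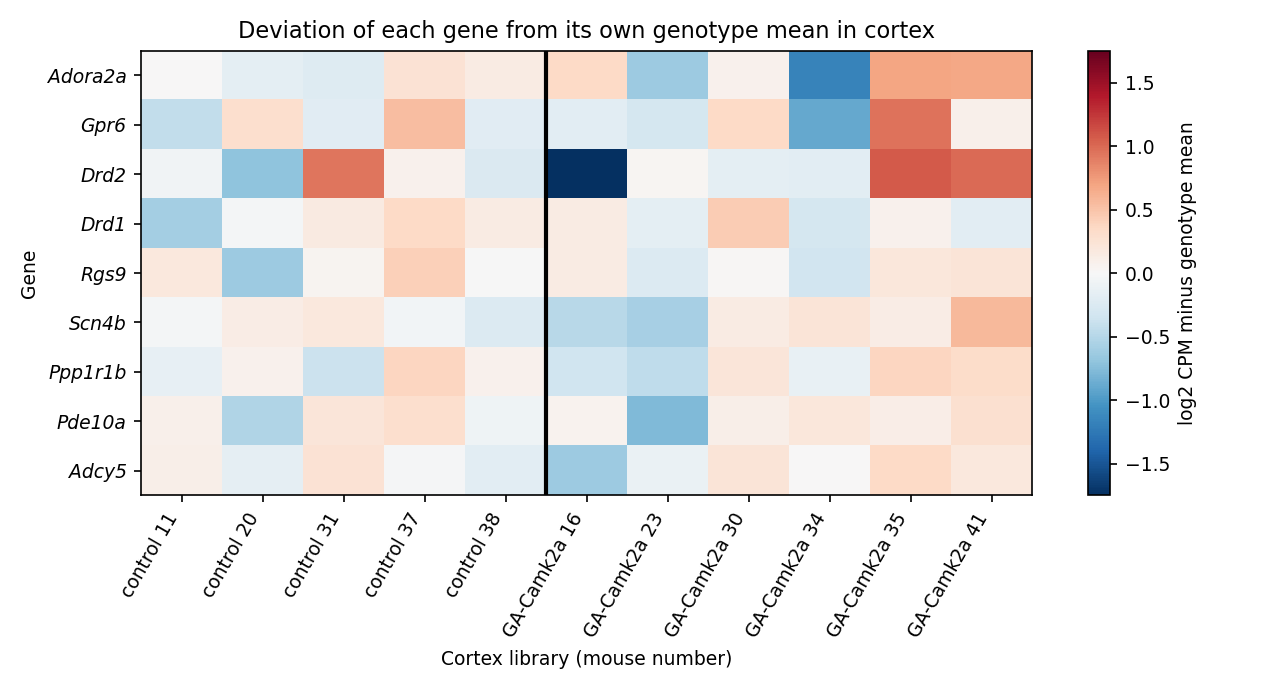
Deviation of log2 CPM from the mean of the gene's own genotype (colour, red above and blue below) for the 9 genes (rows) in 11 cortex libraries (columns, by mouse number). A line separates controls from GA-Camk2a mice. Mice 35 and 41 are mostly above their mean, mouse 23 mostly below it and mice 16 and 34 mixed, and Drd2 in mouse 16, with 0 counts, is the lowest cell at -1.75.

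In hippocampus no genotype difference was detected for these genes. Only 5 of the 9 passed the count filter. GA-Camk2a against control was 0.05 ± 0.23 (SE) for Rgs9, 0.05 ± 0.13 for Adcy5, -0.12 ± 0.11 for Pde10a, -0.41 ± 0.26 for Scn4b and 0.43 ± 0.27 for Ppp1r1b. None passed in edgeR's quasi-likelihood test (0 of 5, and 0 of 5 at an unadjusted p under 0.05), DESeq2 called 0 of 5, and 10.9% of all 14884 genes tested were called in either direction. The intervals were -0.37 to 0.12 for Pde10a, -0.23 to 0.33 for Adcy5, -0.44 to 0.54 for Rgs9, -0.97 to 0.15 for Scn4b and -0.16 to 1.01 for Ppp1r1b. Each of the 5 left out a fall as large as the estimate for the same gene in cortex. Those cortex estimates come from the contrast that chose the genes, so a smaller value in hippocampus follows in part from the choice. The 4 receptor genes had at most 18 counts in a hippocampus library and failed the filter. Without the filter their values were 0.17 ± 0.43 for Adora2a, -0.13 ± 0.48 for Gpr6, -0.65 ± 0.55 for Drd2 and 0.06 ± 0.37 for Drd1. In that fit 0 of 9 genes were called, with 2 of 9 at an unadjusted p under 0.05. Those 2 were not receptors but Ppp1r1b, at 0.35, and Scn4b, at -0.49, which differ in direction. Ppp1r1b came nearest to the threshold without passing it.

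The levels show what lies behind those values. Pde10a was at 37.3, 40.9, 36.5 and 40.4 CPM in control hippocampus and between 29.4 and 42.4 CPM, with a median of 37.2, in GA-Camk2a hippocampus. Adcy5 was at 39.0, 32.4, 29.1 and 31.5 CPM in control hippocampus and between 28.7 and 47.0 CPM, with a median of 34.98, in GA-Camk2a hippocampus. For both genes the control values lay within or close to the range of the transgenic mice. Adora2a was at 1.62 to 2.05 CPM in controls and 1.33 to 4.41 CPM in GA-Camk2a mice, and Drd1 at 1.62 to 4.10 CPM in controls and 2.20 to 3.99 CPM in GA-Camk2a mice. Each of the 9 genes overlapped between the genotypes in hippocampus.

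Ppp1r1b was high in the hippocampus libraries that held much choroid plexus RNA. It was at 135.4, 147 and 149 CPM in GA-Camk2a mice 16, 30 and 35, and at 74.2, 65.2 and 58.0 CPM in mice 23, 34 and 41. The summed level of the 7 choroid plexus markers was 55580, 49880 and 46010 CPM in the former mice and 9570, 1975 and 1847 CPM in the latter. Controls ran the same way, with Ppp1r1b at 91.5 and 93.2 CPM in mice 20 and 37, where the markers had 32770 and 24750 CPM, and at 60.4 and 55.3 CPM in mice 11 and 31, where they had 10900 and 1814 CPM. Ttr entered these sums with means of 17400 CPM in control and 27200 CPM in GA-Camk2a hippocampus. The other markers had means from 12.4 CPM for Otx2 in controls to 75.8 CPM for Folr1 in GA-Camk2a mice, so the sums follow Ttr. All 7 markers passed the filter in hippocampus, and their adjusted p-values between genotypes ran from 0.670 to 0.936 (edgeR). The summed level of 9 neocortical excitatory markers was also high in mice 16 and 30, at 5768 and 4941 CPM. It was 655, 815, 598 and 677 CPM in mice 23, 34, 35 and 41, and 2274 CPM in control mouse 11. Rorb entered this sum with a mean of 1710 CPM in GA-Camk2a hippocampus. The part of choroid plexus or other tissue in the Ppp1r1b value was not tested. In cortex the marker sum was 1595 to 2455 CPM in controls and 1692 to 8203 CPM in GA-Camk2a mice, the highest being mouse 34, whose Ppp1r1b level was 98.7 CPM.

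**Figure D4:**
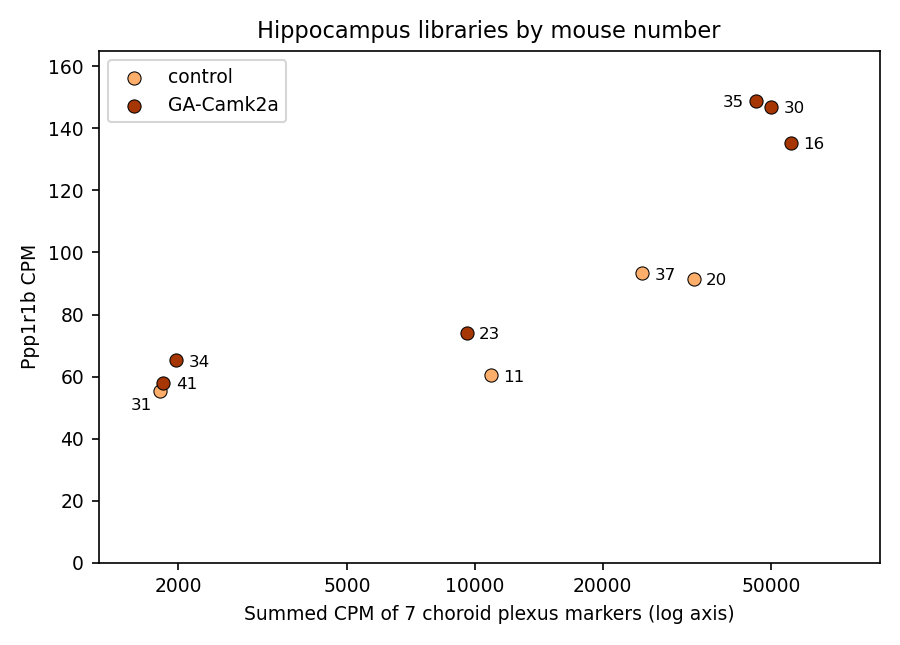
Ppp1r1b CPM (vertical axis, from 0) against the summed CPM of 7 choroid plexus markers (log axis) in the 10 hippocampus libraries, labelled by mouse number. The sum follows Ttr, with means of 17400 CPM in controls and 27200 CPM in GA-Camk2a mice. The 3 libraries with the most marker RNA, from 46010 CPM up and all GA-Camk2a, have 135.4 to 149 CPM of Ppp1r1b, and the other 7 have 55.3 to 93.2 CPM.

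The control tissues show how much of each transcript the cortex pieces held beyond the hippocampus. The control cortex libraries enter the contrast that chose the genes, so the values are a description with no test. All 9 genes passed the filter and were past the threshold downwards in hippocampus, as were 7.62% of all 14435 genes tested, and nothing is read from that count. The difference was -3.78 ± 0.22 (SE) for Adora2a, -3.20 ± 0.34 for Gpr6, -2.88 ± 0.27 for Drd1, -2.77 ± 0.46 for Drd2 and -2.48 ± 0.20 for Rgs9. It was -1.89 ± 0.19 for Scn4b, -1.71 ± 0.17 for Ppp1r1b, -1.09 ± 0.12 for Adcy5 and -0.95 ± 0.14 for Pde10a. The estimates of the 4 receptors were all larger than those of the 5 shared genes. Side by side with the genotype difference in cortex, which shares the control cortex libraries, Pde10a had -0.95 here and -1.49 there, and Ppp1r1b had -1.71 here and -1.10 there.

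The same tissue difference in GA-Camk2a mice uses the cortex libraries on whose low values the genes were chosen, so it is a description too, and a smaller difference than in controls follows from that choice. Of the 9 genes 6 passed the filter. The value was -1.32 ± 0.24 (SE) for Drd1, -0.78 ± 0.19 for Rgs9, -0.68 ± 0.26 for Scn4b, -0.11 ± 0.24 for Ppp1r1b, -0.01 ± 0.15 for Adcy5 and 0.43 ± 0.16 for Pde10a. Drd1 and Rgs9 were past the threshold downwards, as were 16.3% of all 13098 genes tested, and Pde10a upwards, as were 16.9%, and nothing is read from these counts. Pde10a, at a mean of 36.6 CPM in hippocampus and 26.2 CPM in cortex, had 0.41 ± 0.15 with the mouse as replicate block and was then not past the threshold, nor in 9 of 12 fits that left out 1 library. Without the filter Adora2a, Gpr6 and Drd2 had -1.61 ± 0.35, -1.36 ± 0.43 and -1.85 ± 0.48. Adcy5 and Ppp1r1b were at 32.8 and 109.1 CPM in GA-Camk2a cortex and 35.7 and 104.8 CPM in GA-Camk2a hippocampus.

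Fitted over all 4 groups, the cortex effect of the genotype minus the hippocampus effect was -2.20 ± 0.48 (SE) for Adora2a, -1.85 ± 0.58 for Gpr6, -1.72 ± 0.29 for Rgs9, -1.57 ± 0.34 for Ppp1r1b and -1.53 ± 0.38 for Drd1. It was -1.37 ± 0.22 for Pde10a, -1.22 ± 0.33 for Scn4b, -1.09 ± 0.20 for Adcy5 and -0.92 ± 0.87 for Drd2. The interval of Drd2 alone, -2.70 to 0.87, included 0. Of all 14751 genes tested, 0.414% passed the threshold for this difference, and 5 of the 9 did, or 4 with the mouse as replicate block, where Adora2a had -2.16 ± 0.54. These values hold the cortex contrast, so nothing is read from that count.

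Other genes of striatal projection neurons fell with the 9 in cortex, but not all of them. From lists of 34 such genes, drawn up with earlier results of these data known, 25 could be tested in cortex, and 17 were lower in GA-Camk2a mice while the other 8 were not called, against 6.16% of all genes tested that were lower. Their median log2 fold change was -0.71. Of the direct pathway list, 5 of 8 were tested and 1 was lower, Tac1, the precursor of substance P, at -1.05 ± 0.20 (adjusted p = 0.00122, edgeR). The members of these lists that did not pass are named after their values were seen. The prodynorphin gene Pdyn had -0.50 ± 0.22, and Ebf1, Sfxn1 and Eya1 had -0.13, 0.06 and 0.23. Of the indirect pathway list, 3 of 4 were tested and 1 was lower, the enkephalin precursor Penk, at -1.35 ± 0.21 (adjusted p = 0.000134, edgeR), while the transcription factors Six3 and Sp9 had -0.50 ± 0.26 and -0.41 ± 0.22. Of the list shared by both pathways, 17 of 22 were tested and 15 were lower, among them Lrrc10b at -1.56 ± 0.21 and Actn2 at -1.54 ± 0.24. In batch 2 alone, 8 of 25 were lower, while the genes called lower over all genes went from 805 of 13058 to 98 of 11808. Between the control tissues, 18 genes of the shared list were tested. Of these 13 were lower in hippocampus, against 7.62% of all genes tested, 1 was higher and 4 were not called. Lrrc10b was the higher one, by 0.65 ± 0.16. Bcl11b, Strip2 and Actn2, all lower by genotype in cortex, had 0.31 ± 0.11, 0.28 ± 0.15 and -0.39 ± 0.22 between the control tissues and were not called.

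In hippocampus, 26 of the 34 genes were tested, and 7 were lower and 1 was higher, against 5.95% of all genes tested that were lower. All 8 belong to the list shared by both pathways. Lrrc10b fell by 1.32 (adjusted p = 0.000111, edgeR), Actn2 by 0.82 (adjusted p = 0.0184, edgeR) and Meis2 by 0.61 (adjusted p = 0.017, edgeR). The retinoid receptor gene Rxrg rose by 0.98 ± 0.25 (adjusted p = 0.0206, edgeR). Leaving out control mouse 20 ended the calls of Actn2, Meis2 and Rxrg, control mouse 37 those of Actn2 and Rxrg, and control mouse 11 that of Rxrg. Tac1 and Penk, at 0.10 ± 0.16 and -0.02 ± 0.09, were not called. Lrrc10b also differed from the 9 genes in being higher in hippocampus than in cortex in controls, by 0.65.

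**Figure D5:**
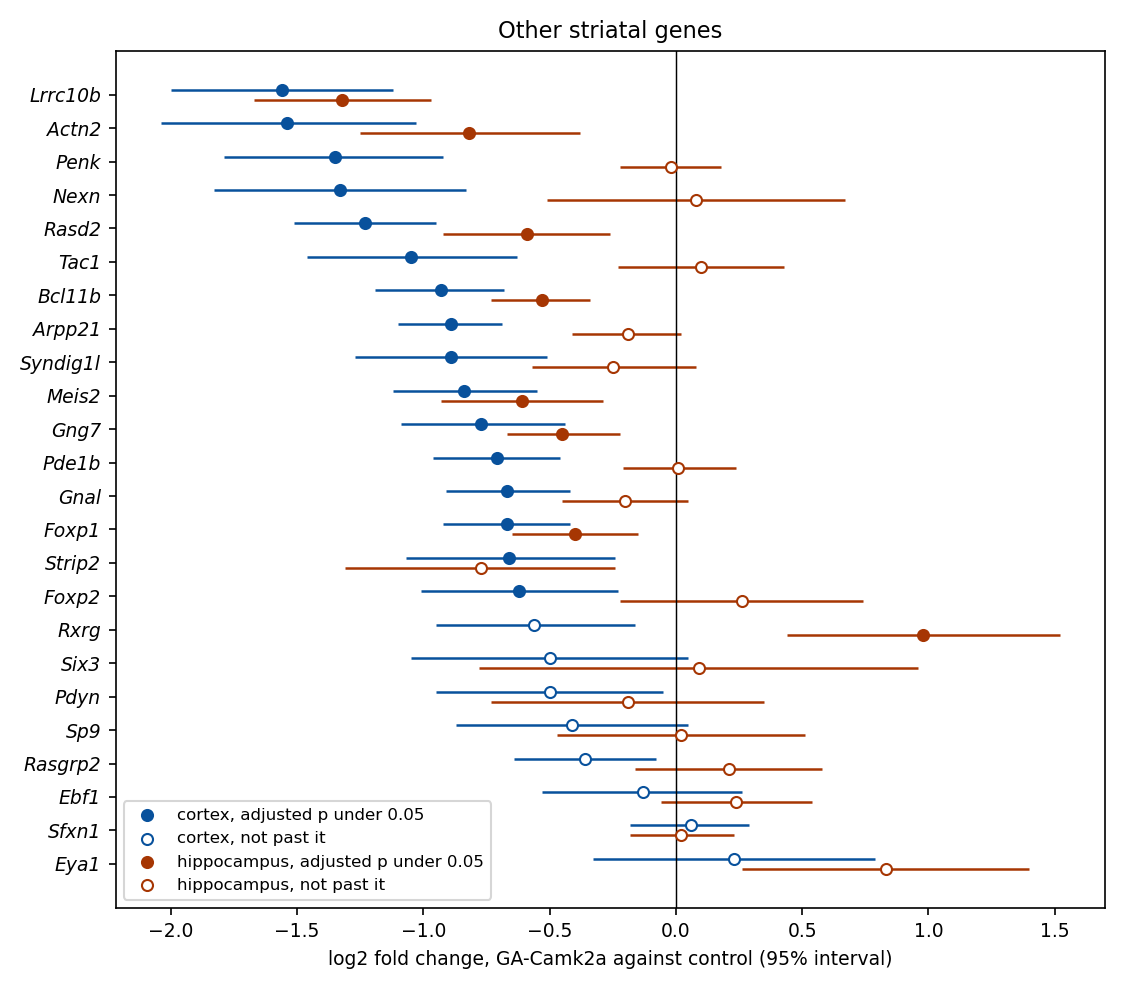
Log2 fold change, GA-Camk2a against control, with 95% intervals, of 24 of the 25 other striatal genes tested in cortex (upper point of each gene) and of the same genes in hippocampus (lower point). Filled points passed an adjusted p of 0.05. In cortex 16 of the 24 are filled and below 0.

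The same lists could be set beside the variation between cortex libraries of 1 genotype, which the genotype difference does not enter. The 25 genes had a median correlation of 0.593 with the mean of the 9, and 6 of 25 (24.0%) reached 0.8 against 0.291% of the other genes. The 6 were Tac1 at 0.843, Gnal at 0.838, Rasd2 at 0.832, Pdyn at 0.831, Penk at 0.830 and Pde1b at 0.819. Pdyn followed the 9 genes from mouse to mouse without passing the test between genotypes, and Actn2, with a large fall, had a correlation of 0.018. Foxp1 and Strip2 had 0.0864 and 0.0539, and Ebf1 and Eya1 had -0.31 and -0.336.

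The partners of dopamine and cAMP signalling, a list of 12 genes of which 3 also stand in the striatal lists, fell in part. In cortex 11 were tested and 7 were lower, against 6.16% of all genes tested, with a median of -0.63. The 3 shared genes, Gnal, Gng7 and Pde1b, are among the 7. The calcineurin subunit Ppp3ca, whose phosphatase acts on DARPP-32, fell by 0.96 (adjusted p = 3.2e-07, edgeR), the G protein subunit Gng7 by 0.77 and the phosphodiesterase Pde1b by 0.71. In hippocampus 4 of 11 were lower, against 5.95% of all genes tested, with Ppp3ca again at -0.96 ± 0.07 (adjusted p = 4.51e-06, edgeR), Rgs7bp, which anchors RGS proteins such as Rgs9, at -0.74 ± 0.21 (adjusted p = 0.0336, edgeR) and Gng7 at -0.45 ± 0.11. The Rgs7bp call was lost in 5 of 10 fits leaving out 1 library, those without control mouse 31 or 37 or GA-Camk2a mouse 16, 30 or 41, and the Gng7 call without control mouse 37. For Ppp3ca the estimates of both tissues were the same to 2 decimals. The catalytic subunits of protein kinase A, Prkaca and Prkacb, were at 54.8 and 230 CPM in control cortex and 53.2 and 209 CPM in GA-Camk2a cortex, and were named after their values were seen.

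Markers of other cells in and around the striatum did not all move with the 9 genes. Cholinergic interneurons lie in the striatum and also in the basal forebrain, and few lie in cortex. Of their 6 markers, only Ecel1 passed the filter in cortex, and it was higher in GA-Camk2a mice, by 0.76 ± 0.20 (adjusted p = 0.0144, edgeR), a call lost without control mouse 38. The defining genes were measured on at most 19 counts a library. The acetyltransferase Chat was at 1.98 CPM in control and 2.46 CPM in GA-Camk2a cortex, the choline transporter Slc5a7 at 3.99 and 4.33 CPM, the vesicular transporter Slc18a3 at 3.04 and 2.66 CPM and the transcription factor Lhx8 at 3.16 and 3.46 CPM. In the fit without a filter their intervals were -0.77 to 1.04 for Chat, -0.62 to 0.71 for Slc5a7, -0.96 to 0.66 for Slc18a3 and -0.46 to 1.06 for Lhx8. The summed level of the 6 markers was 16.1 to 28.6 CPM in control and 19.8 to 36.5 CPM in GA-Camk2a cortex, 2 ranges that overlap, and Ecel1 entered it with means of 10.1 and 16.4 CPM. Of 8 markers of subventricular neuroblasts, which line the striatum, 6 were tested in cortex, with adjusted p-values from 0.128 for Dlx1 to 0.914 for Dlx5 (edgeR), so none was called. Of 6 claustrum markers 5 were tested, and Nr4a2 fell by 1.16. It was also lower in hippocampus, at -0.94 ± 0.21 (adjusted p = 0.00872, edgeR). Gnb4 had -0.49 and Lxn 0.38, calls that were lost in 8 and 1 of 11 fits leaving out 1 library, for Lxn control mouse 31. The part of the dissection border in the levels of the 9 genes was not tested, and no label gives it.

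Markers of other cell types also differed between the genotypes in cortex, and their part in the levels of the 9 genes was not tested. Between libraries of 1 genotype, their median correlation with the mean of the 9 was -0.359 for neocortical excitatory, -0.276 for astrocyte, -0.529 for microglia and 0.394 for GABAergic interneuron markers. Over all genes tested in cortex, 6.16% were lower and 6.35% higher. Of 9 neocortical excitatory markers 4 were lower, among them Tbr1 by 0.82 and Neurod6 by 0.78, and their sum was 957 to 1504 CPM in controls and 788 to 1271 CPM in GA-Camk2a mice. Of 10 microglia markers 8 were higher, and their sum was 414 to 464 CPM in controls and 1088 to 1731 CPM in GA-Camk2a mice. Of 6 astrocyte markers 4 were higher, Gfap by 2.27, with sums of 1570 to 1978 CPM and 2615 to 3795 CPM. In hippocampus 8 of 10 microglia and 5 of 6 astrocyte markers rose, against 4.97% of all genes tested. Of 8 markers of GABAergic interneurons none had a log2 fold change below 0 in cortex and 2 were higher, Vip by 1.31 and Npy by 0.44, the latter with 0.38 and no call without control mouse 31, with sums of 1286 to 1311 CPM in controls and 1398 to 1903 CPM in GA-Camk2a mice.

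Of 10970 genes with an average log2 CPM of at least 3, those whose deviations in the 11 cortex libraries were most like the mean of the 9 were Hap1 at 0.936, Inafm1 at 0.929, Zfp612 at 0.894, Gnai3 at 0.878, Nomo1 at 0.872, Nek1 at 0.870, Hipk4 at 0.868, Hs6st2 at 0.862, Ptprn at 0.857 and Gaa at 0.856. None of these 10 was in the lists used here. Their log2 fold changes between genotypes in cortex ran from -1.12 for Hipk4 to 0.54 for Hap1, beside -1.95 to -1.05 for the 9 genes.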

How the data were processed

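Per the labels and the study's methods, RNA from cortex and hippocampus was made into prime-seq libraries in 2 batches, and the authors deposited 1 table of counts per gene. The study names zUMIs, a counting tool for libraries with molecular identifiers, and demultiplex for these libraries, and the authors' processing notes name FastQC 0.11.8, cutadapt 1.12, STAR, DESeq2 1.44 and mm39. Which of its tables was deposited, of reads or of molecules, the annotation release and the use of strand or introns are not given in the sources used here. Levels are not ranked between genes, and the receptor ratio and the shares, which set counts of different genes against each other, are compared across groups only.

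Symbols came from a GENCODE table and matched 43308 of 64361 gene rows, which hold 96.1% of counts. The GFP row was left out of totals. CPM is the count divided by the library total, of 1048201 to 5888102 counts, and scaled by 1e6. Genotype and tissue comparisons were fitted in edgeR 4.0.16 (R 4.3.3, limma 3.58.1) by the quasi-likelihood F-test with TMM scaling, a batch term, the filterByExpr filter at a minimum count of 10 and Benjamini-Hochberg adjustment over all genes tested, with an adjusted p of 0.05 as threshold. Fold changes are log2 values with SE and 95% intervals. The fits were tested on simulated data. Within-genotype correlations used log2 CPM with a prior count of 2. Intervals from counts of 0 use 3 counts.

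The members and all gene lists were chosen with earlier results of these data known. Named are the 9 members, up to 3 called genes a list and direction by size of change, and the 10 genes most correlated with the members. Some genes that this rule names are not reported here. Libraries of both tissues come from the same mouse in 10 cases. The correlation of their deviations ran from -0.23 to 0.29, and from -0.0111 to 0.0896 with batch removed. Pairing rests on the mouse number in the labels, and the mouse as replicate block was an alternative in the tissue comparisons and the fit over all groups. Other alternatives were other scalings, no filter, DESeq2 1.42.0, no batch term, each batch alone, thinned counts and leaving out each library. DESeq2 without batch, and the leave-outs without a filter, were chosen after seeing the data.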

Additional observations from a re-analysis of the deposited data

Results flagged for a closer look

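Pde10a in the cortex of GA-Camk2a mouse 23, at 14.9 CPM, lay far from the other 5 libraries of its group, with a gap of 0.688 of the group's whole range. It was 1 of 40 sets of values examined, and chance sets apart about 1 in 20. For 5 of the 9 genes, and for 61 of all 14751 genes tested, the fit over all groups gave a genotype effect that differed between the tissues, as cortex effect minus hippocampus effect on the log2 scale. The differences were -2.20 for Adora2a, -1.72 for Rgs9, -1.57 for Ppp1r1b, -1.37 for Pde10a and -1.09 for Adcy5. These differences hold the cortex contrast on which the genes were chosen, so that the count is a description. With the mouse as replicate block Adora2a, at -2.16, no longer passed.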

How the results depend on the processing

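In cortex, where the choice of the genes largely fixed the calls, 177 of 178 values of the 9 genes kept their direction and call over the alternatives, and Drd2 without control mouse 31 did not, so that 8 to 9 genes were called when 1 library was left out. All 152 values of the tissue comparison in controls, which shares the control cortex libraries, kept theirs. In hippocampus 19 of 134 values, all of genes without a call, changed sign. Rgs9 became -0.03 without a filter and -0.07 in batch 1 alone and ran from -0.07 to 0.19 leaving out 1 library. Adcy5 became -0.02 and -0.09 in the same settings and ran from -0.03 to 0.14. Pde10a was 0.00 in batch 1 alone. Without the filter, leaving out 1 library gave -0.07 to 0.30 for Adora2a, -0.47 to 0.41 for Gpr6 and -0.18 to 0.42 for Drd1. In the tissue comparison of GA-Camk2a mice, 118 of 155 values kept direction and call. The genes called went from 3 to 7 with no filter, where 9 were tested, to 1 in thinned counts, where 5 were tested, and to between 2 and 4 leaving out 1 library, while all genes called went from 4359 of 13098 to 4587 of 57781 with no filter and 2933 of 10701 thinned. Adcy5 there was 0.00 with upper quartile scaling and 0.05 with the mouse as replicate block, and ran from -0.13 to 0.09 leaving out 1 library, and Ppp1r1b from -0.27 to 0.05. The replicate block changed no other call of the 9 genes in the comparisons of hippocampus with cortex than that of Pde10a. In the fit over all groups it ended that of Adora2a. The other striatal genes called lower went from 17 to 8 in cortex in batch 2 alone, where all genes called lower went from 805 of 13058 to 98 of 11808. In hippocampus they went from 7 to 1 in batch 1 alone and 3 in batch 2 alone, where fewer libraries enter and all genes called lower went from 886 of 14884 to 67 of 15966 and 349 of 13737, and to between 4 and 8 leaving out 1 library, with 4 without control mouse 20 or 37. The cause of the other changes was not tested. The median correlation of 0.552 in cortex ran from 0.488 to 0.628 leaving out 1 library, and was 0.499 with a prior count of 0.5 and 0.655 around genotype by batch means. Depth limits the receptors in hippocampus, where Adora2a, Gpr6, Drd2 and Drd1 had 12 to 41 counts summed over a group.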
